A study of Mus musculus with 121 samples.

Results

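Wnt proteins are secreted signals that bind Frizzled receptors together with the co-receptors Lrp5 and Lrp6. In the canonical branch this stabilises β-catenin, which works with TCF and LEF factors at target genes, while ligands such as Wnt5a act mainly through other branches. Secreted antagonists hold the signal back: Sfrp proteins and Wif1 bind the Wnt ligands themselves, and Dkk proteins act at the co-receptors. In mouse mammary tissue and skin these signals direct stem cells and branching, and the locus of Wnt1 is a classical insertion site of mouse mammary tumour virus. The genes described here are every gene of the array whose symbol is Wnt, Fzd, Sfrp or Dkk followed by a digit, together with Wif1, Lrp5 and Lrp6. They number 41 of the 18069 genes with a single symbol, and their 47 probes were reduced to the brightest probe per gene among those with a value on at least 90% of arrays.

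RNA of 6 mouse tumours, each transplanted into a hind leg of male C3H/HeMs mice and irradiated locally with a single dose, was measured on CodeLink 1-colour arrays, 81 for gamma rays and 40 for carbon ions, which are described apart. The tumours were a radiation-induced fibrosarcoma (g_8520 and c_8520 in the labels, called the induced fibrosarcoma here), the spontaneous fibrosarcoma nfsa, the spontaneous mammary carcinomas mmca and mca4, and the spontaneous squamous cell carcinomas (SCC in the labels) scc7 and nrs1. Gamma arrays of the induced fibrosarcoma, mmca, nfsa and mca4 covered 30, 50 and 70 Gy at day 1 and unirradiated tumours. Later gamma arrays covered the induced fibrosarcoma at days 8 and 16 (30 Gy) and 22 (50 Gy), mmca at days 9 (30 Gy) and 19 (50 Gy) with an unirradiated day 9 control, and nfsa at days 4 and 9 (30 and 50 Gy). They also covered mca4 at days 11 (30 Gy), 25 and 41 (50 Gy), scc7 at days 8 (30 Gy), 23 and 35 (50 Gy), and nrs1 at days 8 (30 Gy) and 15 (50 Gy). Carbon-ion arrays, all at 30 Gy, covered mmca and mca4 unirradiated and at hour 6 and days 1, 3, 5 and 20. The other 4 tumours had carbon arrays only at day 5 and at day 20 (the induced fibrosarcoma, nfsa and nrs1) or day 42 (scc7). Of the 54 combinations of tumour, beam, dose and time, 41 had 2 arrays and 13 had 3. Whether the arrays of a group come from separate animals is not in the labels, and p-values then measure only how far arrays spread, which may be technical. In whole tumours, fewer cells of a type and less RNA per cell cannot be told apart.

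Among the 41 genes, 27 were tested: 12 ligands, 7 Frizzled receptors, both co-receptors and 6 antagonists. A gene was tested when its probe was above the 20th percentile of mean intensity, at 0.517. Fzd5, Wnt2b, Wnt3a and Wnt8b were dimmer than that. Wnt3a lay just under this limit with a mean intensity of 0.495, and Fzd6 just above it with 0.597. The other 10 had no value on too many arrays: the ligands Wnt2, Wnt7b, Wnt9b and Wnt16, the receptors Fzd8 and Fzd9, the antagonists Dkk1, Dkk4 and Sfrp5, and Fzd10os, an antisense transcript of a receptor gene. Values are intensities on a linear scale, and changes are log2 differences between group means (a step of 1 unit doubles the intensity), each given with its standard error (SE) from 1 limma model of all arrays. A gene is said to rise or fall where its p-value, adjusted over all genes tested, was under 0.05. Within groups the median SD of the 27 genes was 0.112 log2 on gamma arrays and 0.0774 on carbon arrays, against 0.103 and 0.0738 over all 13004 genes tested. Gamma arrays lacked a value for 9.99 to 18.6% of probes and carbon arrays for 0.541 to 4.92%. The tumour labels were set against 8 epithelial marker genes. In scc7 their summed intensity was 3.14 to 5.62 on gamma arrays and 3.94 to 4.74 on carbon arrays, in the range of the fibrosarcomas (1.73 to 7.51 over both beams), so epithelial markers go against the label squamous for scc7. In nrs1 the sum was 1120 to 1504, and in mmca and mca4 it was 194 to 475.

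Tumours differed in which ligand and which antagonist they expressed on the carbon arrays of day 5, where each tumour had 2 arrays at the same dose. These are differences between irradiated tumours. Against unirradiated arrays, described further on, the brighter probe of Wnt4 rose over days 1 to 5 by 1.73 in mmca and 1.90 in mca4. On unirradiated gamma arrays Wnt4 was higher in the fibrosarcomas than in the mammary carcinomas by 1.51. On this brighter probe that is the reverse of its order at day 5. The dimmer probe of Wnt4 at day 5 gave -1.04 in the induced fibrosarcoma and -0.85 in nfsa, against the mean of the other 5 tumours. Both mammary carcinomas lay between these values, so the dimmer probe showed no such reversal. Group means over all carbon arrays spanned 8.12 log2 units for Wnt4, 7.20 for Dkk2, 5.56 for Wnt10a and 5.00 for Sfrp1. For 12 of the 27 genes the span was over 3 units, and for 11 it was under 1 unit. The squamous carcinoma nrs1 stood apart by its ligands. Wnt4, needed for kidney and mammary duct development in the mouse, had intensities of 63.0 and 68.8 in nrs1. It had 2.47 and 2.53 in mca4, 2.15 and 2.06 in mmca, 1.09 and 1.22 in nfsa, 0.551 and 0.602 in the induced fibrosarcoma and 0.477 and 0.491 in scc7. Both nrs1 arrays were far above the other 10, and the difference from the mean of the other 5 tumours was 5.89 ± 0.36 (SE, adjusted p = 2.44e-24). Wnt10a, a ligand required for teeth and skin appendages, had 21.0 and 24.6 in nrs1 and between 0.603 and 3.84 in the other tumours, with a difference of 3.58 ± 0.16 (SE, adjusted p = 4.4e-31). Wnt3a, a canonical ligand among the dim genes, had 1.77 and 1.86 in nrs1 at day 5 and 3.63 and 3.59 at day 20, above its value on all carbon arrays of the other tumours. On gamma arrays of nrs1 Wnt3a had 3.90, 0.843 and 4.04 at day 8. Wnt7a, which patterns the limb, was higher in nrs1 by 1.20, the receptor gene Fzd6, which orders hair follicles in mouse skin, by 1.41, and the antagonist gene Sfrp1 by 2.19. Sfrp1 had 26.6 and 27.7 in nrs1, against 11.2 and 10.6 in nfsa, the next highest tumour. In all, 10 of the 27 genes were higher in nrs1 and 11 lower, where 66.7% of all genes were called (32% higher, 34.7% lower). Their median difference was 0.12, against -0.024 over all genes. The 6 contrasts of 1 tumour with the other 5 use the same 12 arrays.

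Wnt5b, Wif1 and Fzd9 were high in both mammary carcinomas, and Fzd6 was higher in both as well as in nrs1. Wnt5b, a ligand related to Wnt5a, had 3.71 and 4.35 in mmca and 3.29 and 3.23 in mca4, and at most 0.432 in the other 4 tumours. Its differences from the mean of the other 5 tumours were 2.97 ± 0.20 (SE, adjusted p = 4.02e-22) in mmca and 2.61 ± 0.20 (SE, adjusted p = 2.71e-19) in mca4. The ranges of the mammary carcinomas and of the other tumours did not overlap. Wif1 was higher by 1.29 in mmca and 1.78 in mca4, and Fzd6 by 1.08 and 1.44. Each of these contrasts holds the other mammary carcinoma among the 5 tumours it is set against. Fzd9, a receptor gene lacking values on too many gamma arrays for the test, had 1.56 and 1.63 in mmca and 2.23 and 2.28 in mca4, and at most 0.311 in the other tumours at day 5. Lower in both mammary carcinomas were Sfrp4 (-1.95 in mmca and -1.61 in mca4), Wnt10b (-1.15 and -1.17) and Dkk2 (-0.88 and -1.42). Counts were 7 higher and 10 lower in mmca (background 53.7% of all genes called, 20.8% higher and 32.9% lower) and 7 higher and 7 lower in mca4 (53.6%, 23% higher and 30.6% lower). The median differences were -0.11 and 0.02, against -0.089 and -0.067 over all genes.

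Several antagonists were higher in the fibrosarcomas, though not all. Sfrp1 was lower in the induced fibrosarcoma (-0.93), where a dimmer probe gave -0.57 (adjusted p = 0.152). Dkk2, which binds Lrp5 and Lrp6, had 56.5 and 54.9 in the induced fibrosarcoma and 41.0 and 36.2 in nfsa, and at most 3.74 in the other 4 tumours. The differences from the mean of the other 5 tumours were 3.91 ± 0.27 (SE, adjusted p = 1.79e-21) in the induced fibrosarcoma and 3.27 ± 0.27 (SE, adjusted p = 1.1e-17) in nfsa. Sfrp4 was higher by 1.86 in the induced fibrosarcoma and 2.05 in nfsa, and Dkk3, a divergent member of the Dkk family, by 1.30 and 1.47. Wnt5a, a ligand of the non-canonical branch, was higher in the induced fibrosarcoma by 1.73, where it had 2.39 and 2.41, against 0.675 and 0.745 in nfsa. Sfrp2 was higher in nfsa by 1.54, and Wnt10a was lower there, with a log2 difference of -2.61. Wnt2, a ligand with too few values for the test, had 2.20 and 2.04 in the induced fibrosarcoma and 1.25 and 1.30 in nfsa, and at most 0.267 in the other tumours at day 5. In the induced fibrosarcoma 7 genes were higher and 9 lower (52.3% of all genes called, 26.3% higher and 26% lower), and in nfsa 6 and 7 (52.7%, 23.7% higher and 29% lower).

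In scc7 most called genes were lower. Wnt10b, a ligand that in mice holds back fat cell formation, had 1.99 and 2.44 in scc7 and at most 0.835 elsewhere at day 5, a difference of 2.16 ± 0.14 (SE, adjusted p = 3.31e-22). The only other gene higher in scc7 was Fzd7 (0.27). Dkk2 (-3.10), Wnt4 (-2.61), Sfrp1 (-1.61), Fzd6 (-1.11) and Wnt5a (-1.06) were lower. The count was 2 higher and 12 lower, where 59.3% of all genes were called (37.9% higher, 21.4% lower). The median difference of the 27 genes was -0.30, against 0.12 over all genes. Of the Wnt targets and feedback genes, 2 of 19 were higher and 11 lower in scc7, while 11 were higher and 1 lower in each of mmca and mca4. The matrix protease gene Mmp7 (3.33 in mmca and 3.47 in mca4), the receptor gene Tnfrsf19 (3.06 and 3.38) and the feedback inhibitor gene Nkd1 (2.07 and 2.80) led in the mammary carcinomas. Markers of other cells also differed between tumours at day 5. Stroma markers were higher in 6 of 12 in the induced fibrosarcoma, 9 of 12 in nfsa and 5 of 12 in scc7 (1 lower), and lower in 9 of 12 in mmca, 4 of 12 in mca4 and 8 of 12 in nrs1 (1 higher). T and NK cell markers were higher in 5 of 7 in each fibrosarcoma and 7 of 7 in scc7, and lower in 7 of 7 in mmca, 6 of 7 in mca4 and 4 of 7 in nrs1. The summed stroma intensity was 666 to 734 in the induced fibrosarcoma, 635 to 636 in nfsa and 523 to 540.2 in scc7, against 154 to 266 in the other 3 tumours. Epithelial markers were lower in 8 of 8 in each fibrosarcoma and in scc7. The part of these cells in the differences was not tested.

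**Figure D1:**
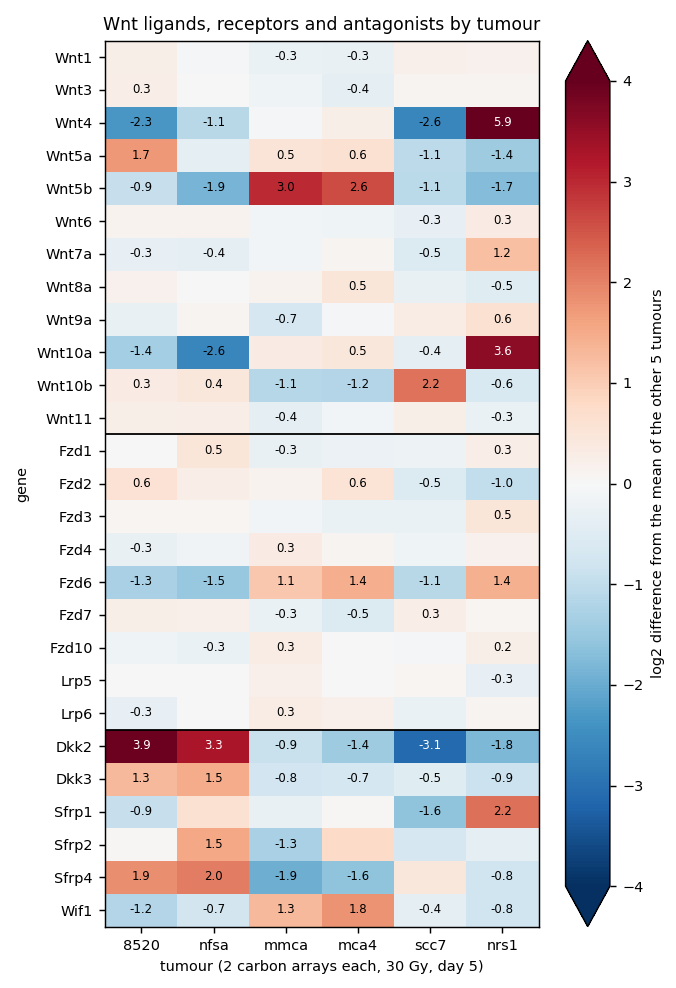
Difference of each of the tested genes in 1 tumour from the mean of the other 5 tumours (log2, colour) on carbon arrays of day 5, with tumours across and genes down. Numbers are printed where the adjusted p was under 0.05. Wnt4 and Wnt10a stand out in nrs1, Wnt5b and Wif1 in mmca and mca4, Dkk2 in both fibrosarcomas, and Wnt10b in scc7.

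The sequences before the start of 4 of these genes are shown because each was high in 1 or 2 of the tumours and all changed in the mammary carcinomas after carbon ions, described further on. They come from RefSeq (build GRCm38.p6), run from 250 bases before to 50 after the annotated start and are written 5′ to 3′ along the gene. The RefSeq table held 26 of the 41 symbols. Capitals mark matches, on either strand, to CTTTGA, the core motif of TCF and LEF factors, or to TATAAA. The 2 motifs do not overlap in these windows.
Wnt4, chr4:137277385-137277684, plus strand: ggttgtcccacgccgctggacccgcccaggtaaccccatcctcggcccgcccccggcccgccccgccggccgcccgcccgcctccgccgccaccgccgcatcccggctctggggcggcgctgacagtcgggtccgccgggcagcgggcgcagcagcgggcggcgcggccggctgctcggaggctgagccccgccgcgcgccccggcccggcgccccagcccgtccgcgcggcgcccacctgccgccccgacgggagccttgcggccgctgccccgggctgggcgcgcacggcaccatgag
Wnt5b, chr6:119449337-119449636, minus strand: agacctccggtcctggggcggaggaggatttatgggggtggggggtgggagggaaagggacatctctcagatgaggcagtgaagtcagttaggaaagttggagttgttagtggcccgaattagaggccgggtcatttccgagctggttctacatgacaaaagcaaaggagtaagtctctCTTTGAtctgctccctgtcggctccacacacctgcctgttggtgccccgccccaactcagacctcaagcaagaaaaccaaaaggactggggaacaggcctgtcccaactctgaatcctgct
Dkk2, chr3:132085042-132085341, plus strand: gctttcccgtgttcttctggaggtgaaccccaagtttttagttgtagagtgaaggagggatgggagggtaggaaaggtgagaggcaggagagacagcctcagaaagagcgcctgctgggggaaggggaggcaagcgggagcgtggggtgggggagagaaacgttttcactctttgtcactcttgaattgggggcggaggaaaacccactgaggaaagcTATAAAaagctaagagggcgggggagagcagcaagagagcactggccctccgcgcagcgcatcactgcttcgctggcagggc
Wif1, chr10:121033754-121034053, plus strand: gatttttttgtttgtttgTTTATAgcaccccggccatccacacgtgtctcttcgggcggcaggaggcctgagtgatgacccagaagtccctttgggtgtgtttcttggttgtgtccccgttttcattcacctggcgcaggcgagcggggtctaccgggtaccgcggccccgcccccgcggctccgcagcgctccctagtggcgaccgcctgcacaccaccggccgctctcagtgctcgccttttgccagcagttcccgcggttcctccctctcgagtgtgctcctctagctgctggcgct
The window of Wnt4 is 84.33% G and C with 51 CG pairs and holds neither motif. That of Wnt5b, 1 of its 3 in the table, was chosen for display because it holds CTTTGA, 71 bases before the start. It is 55% G and C with 7 CG pairs. The other windows of Wnt5b hold neither motif and are 53% and 78% G and C, with 4 and 47 CG pairs. Dkk2 has TATAAA 32 bases before the start, and Wif1 has it on the other strand 232 bases before the start. CTTTGA occurs in 16% of all 32851 windows and in those of 4 of the 26 genes (15.4%), and TATAAA in 13.6% and 5 genes (19.2%). The median window of these genes is 66.67% G and C, against 52.67% over all windows. A match is a description of the letters and not a binding site.

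On gamma arrays of unirradiated tumours Dkk2 and Wif1 also separated the fibrosarcomas from the mammary carcinomas. Dkk2 had 91.8 and 80.2 in the induced fibrosarcoma and 22.9 and 19.1 in nfsa, against 0.401 and 0.376 in mmca and 1.95 and 2.0 in mca4. The 2 classes did not overlap, and the difference of their means was 5.60 ± 0.24 (SE, adjusted p = 3.1e-33). The antagonist genes Sfrp2 (1.99), Dkk3 (1.21), Sfrp1 (1.15) and Sfrp4 (0.64) and the ligand gene Wnt4 (1.51) were also higher in the fibrosarcomas. Wif1 was the one tested antagonist that was lower. Wif1 had 0.788 and 0.924 in the induced fibrosarcoma and 0.801 and 0.875 in nfsa, against 6.76 and 7.27 in mmca and 5.56 and 4.00 in mca4 (-2.77 ± 0.15 SE, adjusted p = 3.6e-28). Wnt5b (-2.14) and Fzd6 (-1.84) were lower. Fzd9, tested only with the limit on missing values lowered to 70% of arrays, differed by -4.91 ± 0.16 (SE, adjusted p = 1.39e-34). Fzd9 had a value on 71.6% of gamma arrays. Its values were too few to estimate a change in the induced fibrosarcoma at day 1 or in nfsa late. In all 12 of 27 genes were higher and 7 lower, where 67.8% of all genes were called (41.6% higher, 26.2% lower). Among the Wnt targets and feedback genes 3 of 19 were higher and 11 lower. Rnf43 (-6.43), which removes Frizzled receptors from the surface, and Nkd1 (-5.81) differed most, and Ccn4 (2.95), a secreted matrix protein gene, was higher. Of the stroma markers 11 of 12, of the macrophage markers 9 of 9 and of the muscle markers 12 of 13 were higher in the fibrosarcomas, and of 6 epithelial markers tested all 6 were lower. Their part in the differences was not tested.

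The same 2 mammary carcinomas compared differently on the 2 sets of arrays. On unirradiated gamma arrays mmca minus mca4 gave 6 genes higher and 7 lower (51.8% of all genes called, 23.4% higher and 28.4% lower). Dkk2 had 0.401 and 0.376 in mmca and 1.95 and 2.0 in mca4 (-2.35 ± 0.35 SE, adjusted p = 3.22e-08). Sfrp2 (-1.59), Sfrp4 (-1.59) and Sfrp1 (-1.33) were lower in mmca and Wnt5a (1.90) higher. A dimmer probe of Sfrp1 gave -0.36 (adjusted p = 0.509). On unirradiated carbon arrays limma called 0 of the 27 genes, where 2.68% of all genes were called (1.24% higher, 1.45% lower). At an unadjusted p under 0.05 there were 2, and 5 were called when the fit held carbon arrays only. Skeletal muscle and stroma markers moved with the gamma difference. Summed over 15 muscle genes, intensity was 21.8 to 23.5 in mmca and 475 to 541 in mca4 on gamma arrays, and 157 to 166 in mmca and 133 to 135 in mca4 on carbon arrays. Over 12 stroma genes it was 60.4 to 64.8 in mmca and 226 to 239 in mca4 on gamma arrays. Their part in the result was not tested.

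At day 8 after 30 Gy gamma the 2 tumours labelled SCC differed in Wnt4, Wnt10b and Sfrp1. Wnt4 had 0.227 and 0.293 in scc7 and 44.4, 46.8 and 47.0 in nrs1, with no overlap (-7.48 ± 0.42 SE, adjusted p = 3.78e-26). Wnt10b had 3.66 and 3.12 in scc7 and 0.385, 0.444 and 0.348 in nrs1 (3.11 ± 0.16 SE, adjusted p = 1.74e-27). Sfrp1 (-3.73), Wnt10a (-2.97) and Fzd6 (-2.91) were lower in scc7, and Dkk3 (2.51) and Wnt5b (1.49) higher. In all, 5 genes were higher in scc7 and 11 lower, where 58.8% of all genes were called (32.1% higher, 26.7% lower). In nrs1 the second array of day 8 stood apart from the other 2, with Sfrp1 at 27.6 against 8.12 and 8.22 and Wnt3a at 0.843 against 3.90 and 4.04. Without it the Sfrp1 difference was -3.15. Macrophage markers were higher in scc7 in 9 of 9 and T and NK cell markers in 6 of 7, and epithelial markers were lower in 7 of 8. The summed intensity of the macrophage markers was 779.9 to 933 in scc7 and 172 to 233 in nrs1, and that of the epithelial markers 4.78 to 5.62 and 1160.3 to 1240.0. Their part in the differences was not tested.

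After carbon ions both mammary carcinomas changed their ligands within days. Neither has unirradiated carbon arrays at the later times, so time and irradiation cannot be told apart in these changes. On unirradiated gamma arrays of mmca, described further on, 5 genes rose and 3 fell between days 1 and 9. Wnt4, Wnt9a, Sfrp2 and Wnt10b were among those that rose there. Wnt4 in mmca had 0.223 and 0.254 unirradiated, 0.223 and 0.250 at hour 6, 0.237 and 0.271 at day 1, 0.981 and 0.880 at day 3, 2.15 and 2.06 at day 5 and 2.35 and 3.09 at day 20. In mca4 it had 0.332 and 0.288 unirradiated, 0.362 and 0.283 at hour 6, 0.595 and 0.595 at day 1, 1.07 and 0.988 at day 3, 2.47 and 2.53 at day 5 and 3.42 and 3.44 at day 20. From day 3 every array of both tumours was above all unirradiated arrays. The change at day 20 was 3.50 ± 0.46 (SE, adjusted p = 9.75e-10) in mmca and 3.47 ± 0.46 (SE, adjusted p = 1.33e-09) in mca4. Wnt10a in mmca had 0.611 and 0.657 unirradiated, 0.777 and 0.799 at hour 6, 0.898 and 0.819 at day 1, 2.25 and 2.31 at day 3, 3.40 and 3.60 at day 5 and 2.66 and 2.68 at day 20. In mca4 it had 0.786 unirradiated (1 array with a value), 3.84 and 3.64 at day 5 and 3.31 and 3.39 at day 20. It was highest at day 5, and the change at day 20 was 2.07 in mmca and 2.09 in mca4. Over days 1 to 5 Wnt10a rose by 1.58 and 1.22 and Wnt4 by 1.73 and 1.90. Wnt4 has a dimmer probe, whose changes were smaller. Over days 1 to 5 it gave 0.34 (adjusted p = 0.277) in mmca and 0.19 (adjusted p = 0.627) in mca4, which did not pass the test. At day 20 it gave 1.32 (adjusted p = 8.03e-05) and 1.21 (adjusted p = 0.000291).

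Wnt9a, a ligand of joint formation, and the receptor gene Fzd9 went the other way. Wnt9a had 0.283 and 0.250 at day 20, against 0.702 and 0.653 unirradiated in mmca (-1.35 ± 0.19 SE, adjusted p = 6.35e-09). In mca4 it had 0.246 and 0.306 at day 20, against 0.752 and 0.904 unirradiated (-1.59 ± 0.19 SE, adjusted p = 5.11e-11). Its changes over days 1 to 5 were -0.78 and -0.68. Fzd9 in mmca had 6.29 and 6.29 unirradiated, 6.42 and 7.34 at day 1, 1.56 and 1.63 at day 5 and 0.824 and 0.907 at day 20. In mca4 Fzd9 had 6.27 and 7.32 unirradiated, 7.98 and 7.82 at day 1, 2.23 and 2.28 at day 5 and 0.777 and 0.768 at day 20. The arrays of days 5 and 20 lay below every earlier array. With the limit on missing values at 70% of arrays the change of Fzd9 at day 20 was -2.86 ± 0.22 (SE, adjusted p = 2.92e-16) in mmca and -3.13 ± 0.22 (SE, adjusted p = 1.67e-17) in mca4. In mmca and mca4 at day 20 Wif1 (-1.32 and -1.25), Lrp5 (-0.49 and -0.82), Lrp6 (-0.48 and -0.63) and Wnt7a (-0.48 and -0.29 on the log2 scale) also fell.

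All other antagonists tested rose by day 20. Dkk2 had 7.68 and 8.72 at day 20, against 1.86 and 1.46 unirradiated in mmca (2.31 ± 0.35 SE, adjusted p = 2.8e-08), and 6.74 and 6.73 against 1.19 and 1.14 in mca4 (2.53 ± 0.35 SE, adjusted p = 2.46e-09). Sfrp2 rose by 2.87 in mmca and 2.27 in mca4, Sfrp1 by 1.37 and 1.61, Sfrp4 by 0.75 and 1.86, and Dkk3 by 0.99 and 0.68. Among ligands Wnt5b rose by 1.72 and 1.19 and Wnt10b by 0.82 and 0.77. Wnt5a rose in mmca by 0.69, and its value in mca4 was 0.45 (adjusted p = 0.0837). In mmca 11 genes rose and 5 fell (59.6% of all genes called, 23% higher and 36.6% lower), and in mca4 10 rose and 8 fell (60.3%, 24.4% higher and 35.9% lower). The 2 tumours have separate arrays: 15 genes were called in the same direction in both (10 higher, 5 lower), which is 93.8% of the calls in mmca and 83.3% of those in mca4, and 0 in opposite directions. Over all genes the calls of 1 direction were 82.1% of those in mmca and 81.1% of those in mca4, so the overlap is near that background. The median change of the 27 genes was 0.066 and -0.086, against -0.14 and -0.14 over all genes. Over days 1 to 5, 3 rose and 4 fell in mmca (41.1%, 15% higher and 26.1% lower) and 3 and 5 in mca4 (26.1%, 13.1% higher and 13% lower). Hour 6, days 1 to 5 and day 20 are each set against the same unirradiated arrays.

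More Wnt targets fell than rose at day 20. Of 19 Wnt targets and feedback genes, 5 rose and 11 fell in mmca, and 3 rose and 11 fell in mca4. Apcdd1, which encodes a membrane inhibitor of Wnt signalling, had 2.97 and 3.25 at day 20, against 18.7 and 19.0 unirradiated in mmca, and 2.10 and 2.09 against 13.1 and 13.0 in mca4. Its change was -2.60 and -2.64. Nkd1 (-2.34 and -2.46), Lef1, a partner of β-catenin (-1.33 and -1.65), Myc (-1.72 and -1.60) and Tnfrsf19 (-1.80 and -1.53) also fell, while Mmp7 (2.19 and 1.77) and Ccn4 (1.81 and 1.04) rose. The median over the 19 was -0.78 in mmca and -0.77 in mca4. Of 22 intracellular components 2 rose and 8 fell in mmca, and 0 rose and 8 fell in mca4. The intracellular components that fell are near the share of all genes that fell, 36.6% in mmca and 35.9% in mca4. Of 16 genes for Wnt secretion, R-spondins and other receptors 5 rose and 3 fell in mmca, and 5 rose and 5 fell in mca4. Markers of other cells moved with these changes. In mmca 10 of 12 stroma markers rose and 1 fell, all 9 macrophage markers rose and 6 of 15 muscle markers rose. In mca4 the counts were 11 and 1 of 12, 8 of 9, and 13 of 15. Epithelial markers rose in 5 of 8 in mmca and in 4 of 8 in mca4 (1 fell). T and NK cell markers rose in 5 of 7 in mmca (1 fell) and in 5 of 7 in mca4. Summed epithelial intensity was 420 to 430 at day 20, against 238 to 267 unirradiated in mmca, and 447 to 475 against 261 to 290 in mca4. Summed over the stroma markers, intensity was 314 to 361 at day 20, against 118 to 127 unirradiated in mmca, and 360 to 428 against 114 to 119 in mca4. Over the macrophage markers it was 678 to 683 against 244 to 249 in mmca, and 715 to 845 against 228 to 237 in mca4. Over the muscle markers it was 573 to 611 against 157 to 166 in mmca, and 869 to 899 against 133 to 135 in mca4. No marker of these lists was at the floor in these groups, and their part in the changes was not tested.

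**Figure D2:**
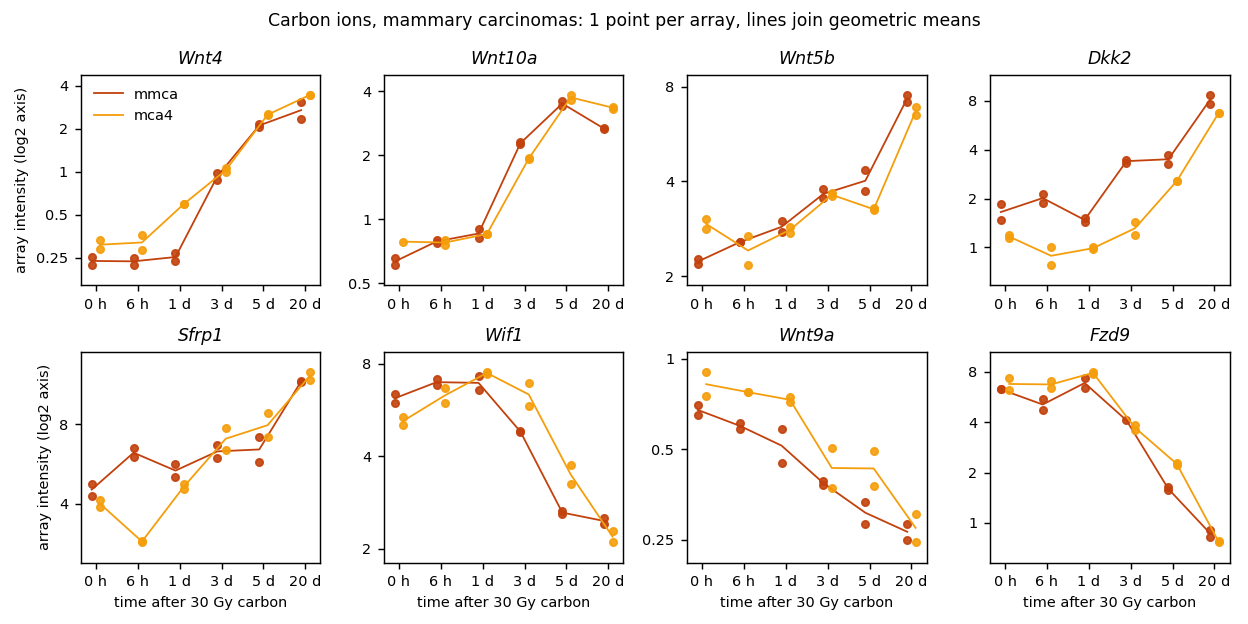
Intensity (log2 axis) of single genes on each carbon array of mmca and mca4, from unirradiated (0 h) to day 20, with lines through the geometric means. Wnt4 and Wnt10a climb between days 1 and 5 in both tumours, Wnt5b, Dkk2 and Sfrp1 are highest at day 20, and Wif1, Wnt9a and Fzd9 end below their unirradiated values.

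At hour 6 after carbon ions 2 of the 27 genes rose and 0 fell in the mean of mmca and mca4, where 9.63% of all genes were called (5.14% higher, 4.49% lower). Sfrp2 had 0.633 and 0.592 at hour 6, against 0.165 and 0.189 unirradiated in mmca, and 0.243 and 0.311 against 0.169 and 0.188 in mca4 (1.21 ± 0.32 SE, adjusted p = 0.00713 for the mean). In both tumours every array of hour 6 was above the unirradiated ones. Wnt10b rose by 1.14 ± 0.14 (SE, adjusted p = 5.26e-09), but in mmca it had 0.227 and 0.270 at hour 6 and 0.189 and 0.255 unirradiated, and mca4 had a single array with a value, at 1.07, against 0.246 and 0.252 unirradiated. At an unadjusted p under 0.05 limma gave 6 genes. Of the 12 stroma markers 4 rose at hour 6, and their summed intensity was 210 to 226 at hour 6, against 118 to 127 unirradiated in mmca, and 165 to 173 against 114 to 119 in mca4; their part was not tested.

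The other tumours had no unirradiated carbon arrays, so later carbon arrays are set against day 5. Sfrp1 fell in both fibrosarcomas. It had 0.902 and 0.877 at day 20, against 4.68 and 4.28 at day 5 in the induced fibrosarcoma (-2.33 ± 0.37 SE, adjusted p = 2.74e-07). In nfsa it had 0.805 and 0.901 at day 20, against 11.2 and 10.6 at day 5 (-3.68 ± 0.37 SE, adjusted p = 1.14e-12). Sfrp1 was also lower at day 42 in scc7 (-1.26), where a dimmer probe gave -1.06 (adjusted p = 0.0536). In nrs1 it had 26.6 and 23.5 at day 20 and 26.6 and 27.7 at day 5 (-0.12, adjusted p = 0.834). Dkk2 rose in the induced fibrosarcoma by 1.23, with 131 and 129.6 at day 20 and 56.5 and 54.9 at day 5. In scc7 Dkk2 rose by 2.40, with 5.04 and 5.25 at day 42 and 1.11 and 0.854 at day 5. In nfsa Wnt10a rose by 1.83, with 2.34 and 2.20 at day 20 and 0.677 and 0.602 at day 5. In nrs1 Wnt7a fell (-0.99 on the log2 scale) and Wif1 rose (0.79). Dkk2 fell there too, but not when the model held the replicate number (-0.84, adjusted p = 0.0749). Counts were 6 higher and 3 lower in the induced fibrosarcoma (45% of all genes called, 28% higher and 17% lower), 3 and 2 in nfsa (20.1%, 12.2% higher and 7.88% lower), 2 and 3 in nrs1 (35.9%, 24.5% higher and 11.4% lower) and 7 and 4 in scc7 (32.7%, 15.6% higher and 17.1% lower). Markers of T and NK cells fell in the same comparisons, 7 of 7 in the induced fibrosarcoma and scc7, 6 of 7 in nfsa and 2 of 7 in nrs1, and endothelial markers fell in 4 of 6 in the induced fibrosarcoma, 6 of 6 in nfsa and 4 of 6 in nrs1. The summed intensity of the T and NK cell markers was 16 to 17 at day 20, against 215 to 240 at day 5 in the induced fibrosarcoma, and 16.7 to 24.9 against 254 to 257 in nfsa. Their part in the changes was not tested.

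At day 1 after gamma rays, in the mean of the induced fibrosarcoma, mmca, nfsa and mca4 over 3 doses, 8 of the 27 genes rose and 8 fell (59.4% of all genes called, 24.8% higher and 34.5% lower). Among ligands Wnt9a rose by 0.97 ± 0.084 (SE, adjusted p = 4.21e-16), Wnt4 by 0.85, Wnt5a by 0.65 and Wnt5b by 0.35, and Wnt7a fell (-0.48 on the log2 scale). Both co-receptors fell, Lrp5 with -0.38 and Lrp6 with -0.33. Dkk2 rose by 0.84 and Sfrp1 fell (-0.59). The median change of the 27 genes was -0.019, against -0.037 over all genes. By tumour the counts were 6 higher and 5 lower in the induced fibrosarcoma (50.7%, 18.5% higher and 32.3% lower), 3 and 1 in mmca (33.1%, 18.2% higher and 15% lower), 6 and 5 in nfsa (29%, 9.4% higher and 19.6% lower) and 4 and 4 in mca4 (42.6%, 21.3% higher and 21.3% lower). With each tumour's change taken as 1 value, limma called 0 of the 27 genes (4 of 13004 genes), so the mean over tumours describes these 4 tumours only.

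At day 1 Wnt4 rose in both fibrosarcomas, in nfsa by the brighter of its probes only. In the induced fibrosarcoma Wnt4 had 1.03 and 1.50 unirradiated, 2.20 and 2.03 at 30 Gy, 2.99 and 3.82 at 50 Gy and 2.93 and 3.02 at 70 Gy (1.16 ± 0.38 SE, adjusted p = 0.00784). In nfsa it had 0.291 and 0.272 unirradiated, 1.40 and 1.51 at 30 Gy, 1.43 and 1.15 at 50 Gy and 0.932 and 0.930 at 70 Gy (2.09 ± 0.38 SE, adjusted p = 1.63e-05). Every irradiated array of both tumours was above the unirradiated ones. In mca4 it had 0.323 and 0.242 unirradiated and 0.144 and 0.142 at 70 Gy, and the changes of -0.17 in mca4 and 0.33 in mmca did not pass the test (adjusted p = 0.749 and 0.533). The change was larger in the fibrosarcomas by 1.55 ± 0.38 (SE, adjusted p = 0.00161). The dimmer Wnt4 probe gave 0.71 (adjusted p = 0.0103) in the induced fibrosarcoma and 0.38 (adjusted p = 0.229) in nfsa. It lacked the values in mca4 for the difference between tumour types. Sfrp1 fell in the induced fibrosarcoma (-1.57) and in nfsa (-1.26), and the difference of its change, fibrosarcomas minus mammary carcinomas, was -1.65 ± 0.30 (SE, adjusted p = 3.16e-05). By dose the change in nfsa was -0.66 (adjusted p = 0.147) at 30 Gy, -0.68 (adjusted p = 0.283) at 50 Gy and -2.45 (adjusted p = 2.84e-07) at 70 Gy, and only that at 70 Gy passed the test. Dkk2 in mmca had 0.401 and 0.376 unirradiated, 0.938 and 1.03 at 30 Gy, 1.94 and 1.74 at 50 Gy and 1.49 and 1.55 at 70 Gy (1.85 ± 0.28 SE, adjusted p = 3.42e-07), with no overlap. Beside it, 8 of 12 stroma markers and 6 of 13 muscle markers rose in mmca, and their part was not tested. Wnt5a rose in the induced fibrosarcoma (0.99), nfsa (0.63) and mca4 (1.38). In mca4 Wnt5a had 0.734 and 0.873 at 30 Gy, 0.902 and 1.06 at 50 Gy and 0.534 and 0.561 at 70 Gy, against 0.267 and 0.316 unirradiated. The difference of the changes between fibrosarcomas and mammary carcinomas was called for 4 genes higher and 3 lower (21.9% of all genes called, 4.35% higher and 17.5% lower).

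**Figure D3:**
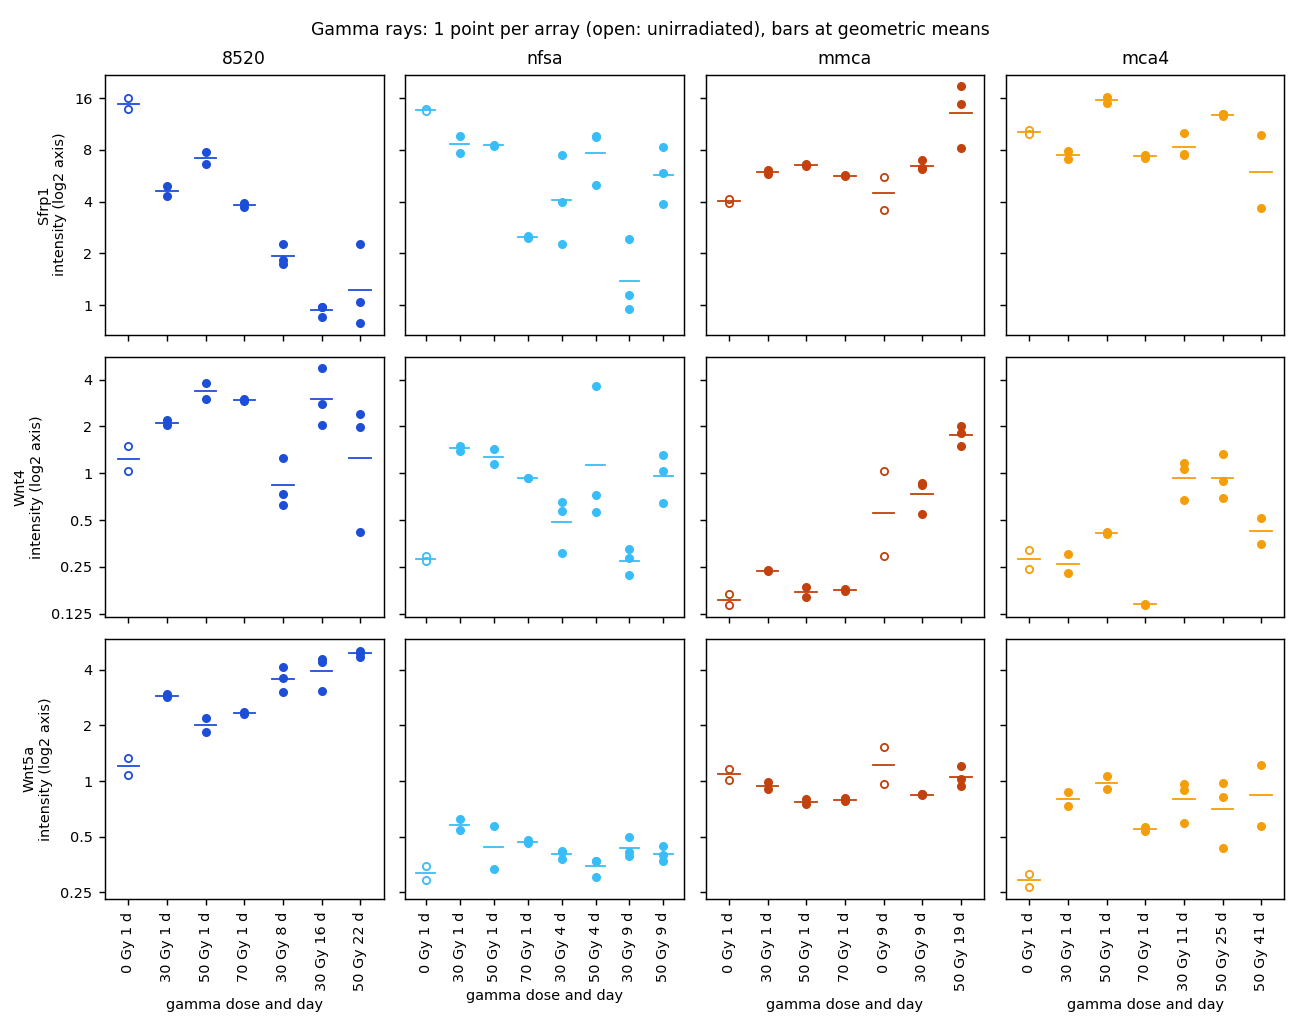
Intensity (log2 axis) of Sfrp1, Wnt4 and Wnt5a on each gamma array of the 4 tumours with unirradiated arrays, ordered by day and dose. Open points are unirradiated and bars are geometric means. Sfrp1 in the induced fibrosarcoma and nfsa lies lower on irradiated arrays, with day 8 and later arrays of the induced fibrosarcoma at 2.26 or less, and Wnt4 in both fibrosarcomas is higher on every irradiated array of day 1.

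Wnt9a at day 1 did not follow the order of doses. At day 1 its 15 values at 0 and 50 Gy lay between 0.231 and 0.453 in all 4 tumours, and its 16 values at 30 and 70 Gy between 0.695 and 1.10. The mean change over tumours was 1.43 at 30 Gy, 0.052 at 50 Gy (adjusted p = 0.706) and 1.41 at 70 Gy. No array of 0 or 50 Gy reached an array of 30 or 70 Gy. Of the 27 genes, 3 (Fzd3, Wnt7a and Wnt9a) had both the 0 and 50 Gy means on 1 side of the 30 and 70 Gy means in all 4 tumours. The arrays of 0 and 50 Gy had medians of 1.42 to 1.68 and those of 30 and 70 Gy 1.42 to 1.72, with 10.1 to 15.2% and 10.4 to 15.3% of values missing. Taken singly, 30 Gy arrays had medians of 1.57 to 1.72 and 70 Gy arrays 1.42 to 1.52. Missing values were 13.6 to 15.3% at 30 Gy and 10.4 to 11.4% at 70 Gy, so neither measure overlapped. The part of this array difference in the contrast of 70 with 30 Gy was not tested. The labels used here give no array batch or date, and a batch shared by doses was not tested. The contrast of 70 with 30 Gy called 4 genes higher and 3 lower (50% of all genes called, 23.5% higher and 26.4% lower): Lrp5 (0.37), Fzd3 (0.32), Wnt3 (0.24) and Fzd7 (0.22) were higher at 70 Gy, and Sfrp1 (-0.54), Sfrp4 (-0.38) and Wnt5a (-0.35) lower. The rise of Fzd3 depends on the probe: a second, dimmer probe with enough values gave a change of -0.24 in the mean over tumours at day 1, where the brighter one gave 0.57. For 70 minus 30 Gy a dimmer probe of Sfrp1 gave -0.42 (adjusted p = 0.0996).

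**Figure D4:**
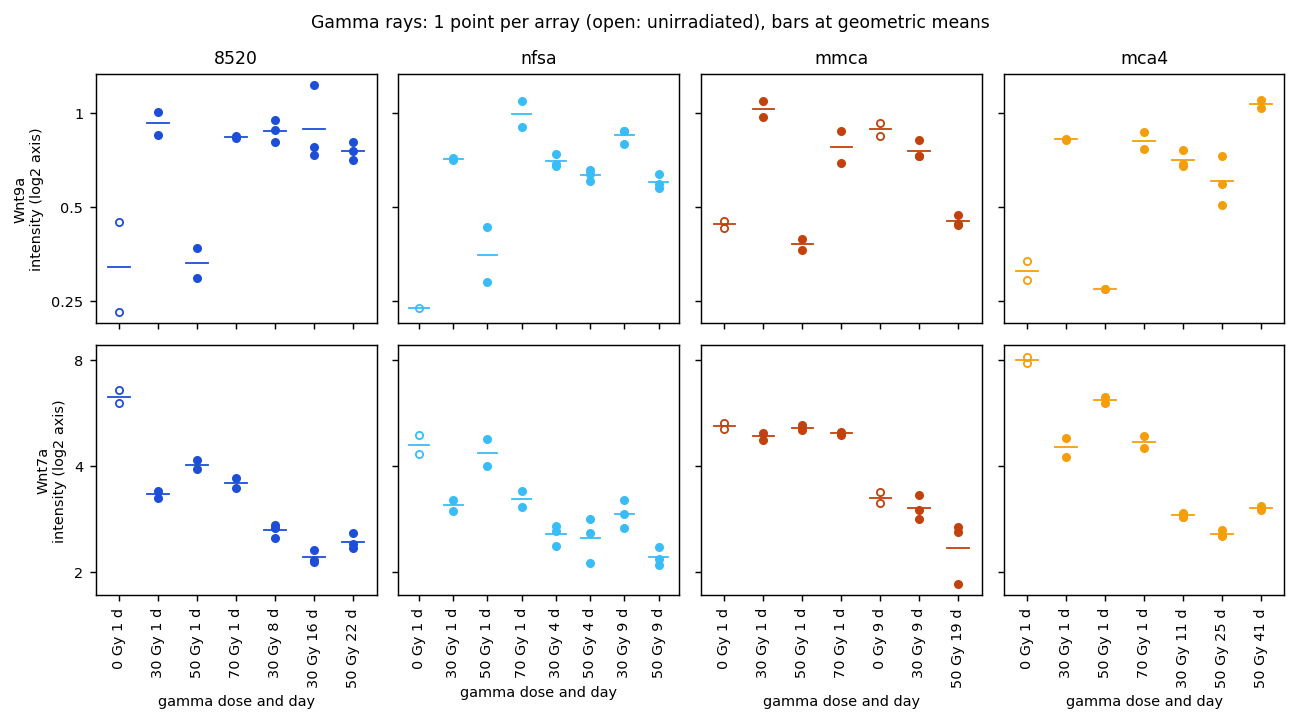
Intensity (log2 axis) of Wnt9a and Wnt7a on each gamma array of the induced fibrosarcoma, mmca, nfsa and mca4 by dose and day. Wnt9a at day 1 is at 0.231 to 0.453 at 0 and 50 Gy and at 0.695 to 1.10 at 30 and 70 Gy in every tumour, and Wnt7a is lower at the later days.

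At days 8 to 25 after gamma rays 11 of the 27 genes rose and 8 fell in the mean of the 4 tumours (73.6% of all genes called, 34.2% higher and 39.3% lower), with a median of 0.094, against -0.028 over all genes. These arrays share the unirradiated arrays of day 1, except in mmca, which has its own day 9 control. With each tumour's change as 1 value, 0 of the 27 genes and 97 of 13004 genes were called. The deepest fall was that of Sfrp1 in the fibrosarcomas. In the induced fibrosarcoma Sfrp1 had 13.8 and 16.1 unirradiated, 1.73, 1.84 and 2.26 at day 8, 0.982, 0.857 and 0.976 at day 16 and 2.26, 0.791 and 1.05 at day 22 (-3.51 ± 0.29 SE, adjusted p = 1.73e-17). In nfsa it had 13.7 and 13.5 unirradiated, 1.15, 2.43 and 0.947 at day 9 after 30 Gy and 5.87, 8.30 and 3.87 at day 9 after 50 Gy (-2.27 ± 0.30 SE, adjusted p = 1.52e-09). No late array reached an unirradiated one in either tumour. In mmca Sfrp1 rose by 1.04, a call lost (adjusted p = 0.178) without the second unirradiated day 9 array. In mca4 its change was 0.018 (adjusted p = 0.962). The difference between fibrosarcomas and mammary carcinomas was -3.42 ± 0.30 (SE, adjusted p = 6.01e-15). This contrast was added after seeing the data and called 4 genes higher and 7 lower (39.1% of all genes called, 12.6% higher and 26.4% lower).

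Dkk2, Wnt10a and Wnt5b rose late in both mammary carcinomas after gamma rays, and Wnt4 rose in mca4. Dkk2 in mmca had 2.90, 2.19 and 3.35 at day 9 and 5.41, 7.01 and 4.76 at day 19, against 0.646 and 0.434 in the unirradiated day 9 control (2.90 ± 0.28 SE, adjusted p = 6.18e-14). Wnt10a in mmca had 1.46, 1.69 and 1.51 at day 9 and 2.07 and 2.18 at day 19, against 0.634 and 0.743 unirradiated (1.40 ± 0.17 SE, adjusted p = 4.79e-10). Both genes were above the control on every irradiated array. In mca4 Wnt10a rose by 0.57, Dkk2 by 0.95, and Wnt5b by 1.34, beside 1.04 in mmca. Wnt4 in mca4 had 1.06, 0.669 and 1.16 at day 11 and 0.694, 1.33 and 0.894 at day 25, against 0.323 and 0.242 unirradiated (1.75 ± 0.38 SE, adjusted p = 4.62e-05). On its dimmer probe this change was 0.93 (adjusted p = 0.000524). In mmca the call of Wnt4, at 1.04, was lost on the dimmer probe, at 0.31 (adjusted p = 0.306). On the brighter probe it lay between 0.13 and 1.95 when single arrays were left out, and the control arrays had 1.04 and 0.294. In mmca 6 genes rose and 3 fell (42.5% of all genes called, 25.8% higher and 16.7% lower), and in mca4 8 and 3 (63.8%, 28.9% higher and 34.9% lower). The day 9 control arrays of mmca had medians of 1.31 and 1.37, against 1.58 to 1.63 on its late irradiated arrays. Missing values were 9.99 and 10.4%, against 13.8 to 14.2%. The part of this array difference in the mmca changes was not tested. Of the 9 calls in mmca 8 had the same direction at day 20 after carbon ions (88.9% of the gamma calls and 50% of the 16 carbon calls), and of the 11 in mca4 7 had (63.6% and 38.9%), with 2 opposite, Wif1 and Wnt9a. Over all genes the calls of 1 direction were 72% of the gamma calls and 51.3% of the carbon calls in mmca, and 41.2% and 43.6% in mca4. Doses and days differ between these beams, so their sizes are not compared. Fzd9 in mmca had 0.780, 1.47 and 1.58 at day 19, against 7.22 and 5.87 in the day 9 control. The change over both days was -1.64 ± 0.18 (SE, adjusted p = 8.53e-11) with the 70% limit. Beside the mmca changes 9 of 12 stroma markers rose and 1 fell, and 8 of 9 macrophage and 7 of 15 muscle markers rose. The summed stroma intensity was 86.6 to 369 on the irradiated arrays, against 57.7 to 84.1 in the control. Their part was not tested.

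Wnt7a fell late in all 4 tumours with unirradiated arrays: -1.38 in the induced fibrosarcoma, -0.28 in mmca, -0.86 in nfsa and -1.55 in mca4. In mca4 it had 2.87, 2.87 and 2.94 at day 11 and 2.53, 2.55 and 2.63 at day 25, against 7.83 and 8.19 unirradiated. In unirradiated mmca Wnt7a was also lower at day 9 than at day 1 (-0.68), with 3.14 and 3.37 at day 9 and 5.31 and 5.11 at day 1. The other tumours have no unirradiated arrays later than day 1, so time and irradiation cannot be told apart there. Wnt5a rose in the induced fibrosarcoma by 1.77, with 4.93, 4.69 and 5.07 at day 22, against 1.08 and 1.33 unirradiated, and in mca4 by 1.37. Wnt5b rose in the induced fibrosarcoma (0.88) and fell in nfsa (-0.95). In nfsa Sfrp4 rose by 1.47, with 1.78, 1.98 and 1.43 at day 9 after 30 Gy and 7.47, 4.79 and 5.34 after 50 Gy, against 1.17 and 1.10 unirradiated. The receptor gene Fzd2 rose in the induced fibrosarcoma (0.75) and fell in nfsa (-1.15). Fzd3 rose on its brighter probe by 1.05 in the induced fibrosarcoma and 1.14 in nfsa. A dimmer probe of Fzd3 gave -0.50 and 0.39. Wnt3, a canonical ligand, fell in the induced fibrosarcoma (-0.86), nfsa (-0.56) and mca4 (-0.87), and Lrp5 in the same 3 (-0.49, -0.55 and -0.47). Wnt2, tested with the 70% limit, rose in the induced fibrosarcoma by 2.22 ± 0.29 (SE, adjusted p = 2.91e-09) and in nfsa by 1.01 ± 0.30 (SE, adjusted p = 0.00375). Wnt4 in nfsa at day 9 had 0.284, 0.323 and 0.221 after 30 Gy and 1.32, 1.04 and 0.646 after 50 Gy, against 0.291 and 0.272 unirradiated. Its rise of 0.86 is over both doses: the 30 Gy arrays overlapped the unirradiated ones, and those of 50 Gy were all above them. The dimmer probe gave 0.44 (adjusted p = 0.108) there. In the induced fibrosarcoma 8 genes rose and 10 fell (67.6%, 28.3% higher and 39.3% lower), and in nfsa 8 and 9 (57.4%, 24.6% higher and 32.8% lower). The 2 fibrosarcomas shared 10 calls of 1 direction, 55.6% of those in the induced fibrosarcoma and 58.8% of those in nfsa, and had 3 of opposite direction: Fzd2, Sfrp4 and Wnt5b. Over all genes the calls of 1 direction were 40.5% and 47.7%, and the opposite ones 19.2% and 22.6%. T and NK cell markers rose beside these changes, 5 of 7 in the induced fibrosarcoma and 7 of 7 in nfsa. Their summed intensity was 7.66 to 67.3 on the late arrays, against 7.92 to 8.39 unirradiated in the induced fibrosarcoma, and 26.3 to 161 against 8.03 to 8.71 in nfsa. Endothelial markers fell in 4 of 6 in the induced fibrosarcoma (1 rose) and 5 of 6 in nfsa, with sums of 20.9 to 70.5 on the late arrays, against 67.7 to 70.1 unirradiated in the induced fibrosarcoma, and 23.8 to 43.4 against 43.8 to 51.8 in nfsa. Adipocyte markers fell in 3 of 3 in the induced fibrosarcoma and 2 of 3 in nfsa (1 rose). Macrophage markers rose in 6 of 9 in nfsa (1 fell) and 3 of 9 in the induced fibrosarcoma (2 fell). Muscle markers fell in 4 of 15 in the induced fibrosarcoma. Their part in the changes was not tested.

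**Figure D5:**
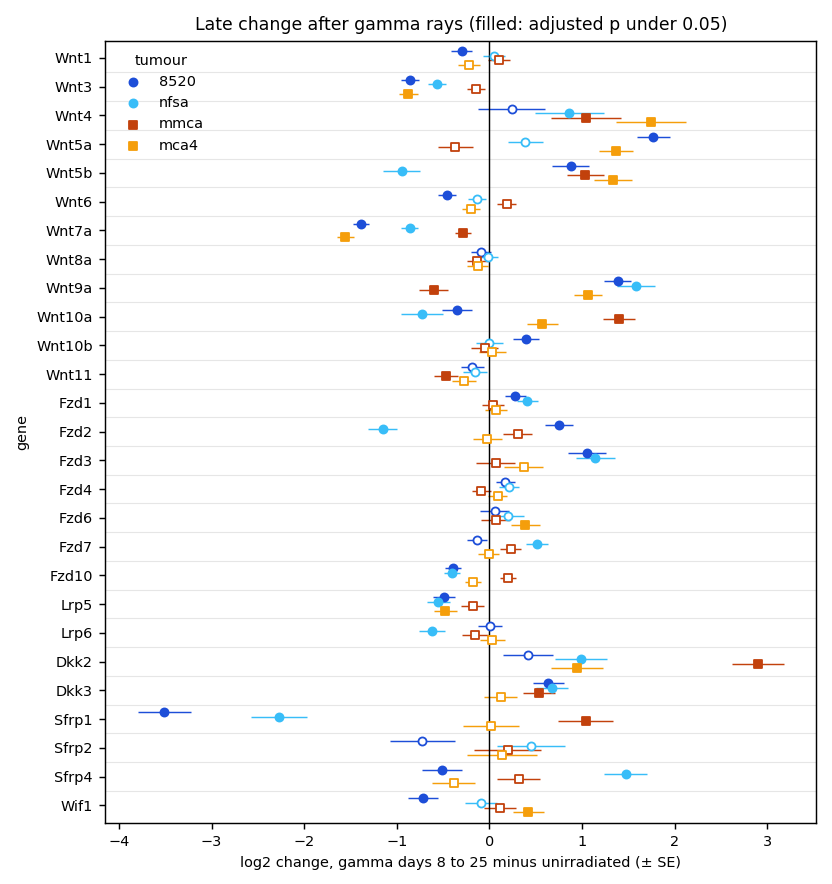
Log2 change with SE of each tested gene at gamma days 8 to 25 against unirradiated arrays, with 1 symbol per tumour and filled symbols for an adjusted p under 0.05. Sfrp1 is far to the left in the induced fibrosarcoma and nfsa and to the right in mmca, and Dkk2 is farthest to the right in mmca.

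Several genes differed between days 1 and 9 without irradiation. In mmca, day 9 minus day 1, 5 genes rose and 3 fell (21.2% of all genes called, 6.92% higher and 14.3% lower). Both day 9 arrays had the lowest medians of all gamma arrays (1.31 and 1.37), with 9.99 and 10.4% of values missing. The day 1 arrays had medians of 1.61 and 1.66, with 13.7 and 14.3% missing. Time and this array difference cannot be told apart. Wnt9a had 0.847 and 0.931 at day 9 and 0.429 and 0.453 at day 1 (1.01 ± 0.19 SE, adjusted p = 4.78e-05). Sfrp2 rose by 1.44 and Wnt10b by 0.75, while Wnt6 fell (-0.71). The rise of Wnt4 (1.85) lost its call (adjusted p = 0.294) without the first day 9 array, and the dimmer probe gave 0.53 (adjusted p = 0.189). Wnt9a at days 9 and 19 in mmca was lower than the day 9 control (-0.60) and higher than the day 1 control (0.41, adjusted p = 0.023). In the other tumours late Wnt9a, set against day 1 controls, rose by 1.38 in the induced fibrosarcoma, 1.58 in nfsa and 1.06 in mca4.

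Some gamma arrays stand outside these contrasts. In nfsa at day 4 Sfrp1 had 7.44, 2.28 and 3.97 after 30 Gy and 9.62, 5.03 and 9.50 after 50 Gy, against 13.7 and 13.5 unirradiated. In mca4 at day 41 Dkk2 had 2.12 and 0.439, and Wnt5b had 2.28 and 2.85, below its values of 3.85, 6.13 and 4.87 at day 25. In nrs1 Wnt4 had 46.0, 48.9 and 39.2 at day 15 after 50 Gy and 44.4, 46.8 and 47.0 at day 8 after 30 Gy. In scc7 Wnt10b had 3.66 and 3.12 at day 8, 2.90 and 3.16 at day 23 and 2.32 and 2.60 at day 35, all above its values in the other tumours, which reached 1.07.

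The remaining genes changed by less than 1 log2 unit in each comparison given here. Wnt1, whose locus was named above, had 1.37 to 2.92 on carbon arrays and 1.89 to 3.61 on gamma arrays, and its median on gamma arrays was 2.18 to 2.27 in mca4 and mmca and 2.76 to 2.92 in the induced fibrosarcoma and nfsa. Unirradiated, it was higher in the fibrosarcomas by 0.33. Wnt8a, an early embryonic ligand, was called between tumours: unirradiated it was lower in the fibrosarcomas (-0.28), and at day 5 after carbon ions it was higher in mca4 (0.47) and lower in nrs1 (-0.48). Against unirradiated arrays, its log2 change passed the test at single doses of day 1, at 30 Gy in mmca (0.37, adjusted p = 0.0232) and in the mean of the 4 tumours (0.18, adjusted p = 0.0176), at 50 Gy in the induced fibrosarcoma (-0.35, adjusted p = 0.0328) and at 70 Gy in the mean (0.16, adjusted p = 0.0427). Wnt11, which acts in branching of the kidney, had medians of 0.995 in the induced fibrosarcoma and 0.940 in nfsa on gamma arrays, against 0.648 in mmca and 0.586 in mca4, and fell late in mmca (-0.47). Wnt6 had its lowest carbon median in scc7, at 2.98, and its highest in nrs1, at 4.27, and the 2 tumours differed by -0.73 on gamma arrays. Among receptors Fzd1 rose late after gamma rays in the induced fibrosarcoma (0.28) and nfsa (0.41) and at day 20 after carbon ions in mmca (0.41) and mca4 (0.31). Fzd10 fell late in the fibrosarcomas (-0.39 in the induced fibrosarcoma and -0.40 in nfsa). Fzd4, a receptor of retinal vessel growth, had 0.575 to 1.22 over all arrays and rose at day 1 in mmca (0.34). Fzd7 rose in nfsa at day 1 (0.40) and late (0.52).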

How the data were processed

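Total RNA of each tumour was extracted with ISOGEN and RNeasy columns and its Cy5-labelled product was hybridised to CodeLink mouse arrays, per the labels' protocols. The values table deposited by the authors holds 1 intensity per probe and array on a linear scale. How it was normalized is not given in the sources used here. Of 36227 probes, 21615 have 1 gene symbol in the platform annotation, 681 several and 13931 none, and genes were named only from the first kind.

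From there on, values under the 5th percentile (0.127) were set to it and log2 was taken. Per gene the brightest probe with values on 90% or more of arrays was kept, and probes under the 20th percentile of mean intensity were left out. A group means model over all arrays was fitted with limma 3.58.1 in R 4.3.3, missing values stayed missing, and p-values were adjusted over all genes of a comparison by the Benjamini-Hochberg method. There were 33 comparisons. The number of arrays limits the precision. The script was tested on simulated data.

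All genes of the rule are named. Values are given for a choice of the called genes in each comparison, and of the pathway lists for up to 6. Called genes left without a value are not all named. The genes and the lists were chosen with earlier results of these data known. Replicate numbers pair the carbon mca4 arrays, where all 15 correlations of deviations between same-numbered arrays were over 0.1 (0.125 to 0.348). In no other tumour with 3 or more pairs were all of them over 0.1, so the main model has no replicate block. In carbon mmca, though, 12 of 15 were over 0.1 (-0.0055 to 0.433), with a median of 0.272, against 0.192 in carbon mca4. The main model leaves such pairing out in both tumours. Promoter windows come from a RefSeq table (GRCm38.p6). Alternatives covered the normalization, the floor, both filters, the replicate block, arrays of 1 beam, other controls, single doses, other probes and left-out arrays. Contrasts of single doses, the 70% limit on missing values and the late difference between tumour types were added after the data were examined.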

Additional observations from a re-analysis of the deposited data

Results flagged for a closer look

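At gamma day 1 the change of 7 genes differed between the fibrosarcomas and the mammary carcinomas by the test of the difference itself in limma. The differences, fibrosarcomas minus mammary carcinomas, were 1.55 for Wnt4, 0.59 for Fzd3, 0.54 for Dkk3, 0.46 for Wnt9a, -0.60 for Wif1, -0.61 for Wnt5b and -1.65 for Sfrp1 on the log2 scale. These are 7 of 27 genes, beside 21.9% of all genes. The dimmer probe of Fzd3 gave -0.066 (adjusted p = 0.715) for this difference. The Wnt9a difference lost its call in 13 of the fits that left out 1 array. At gamma days 8 to 25 the same test called 11 of 27 genes, beside 39.1% of all genes. The differences were 1.25 for Wnt9a, 0.88 for Fzd3, 0.58 for Wnt5a, 0.29 for Fzd1, -0.29 for Wnt6, -0.41 for Fzd10, -0.67 for Wif1, -1.22 for Wnt5b, -1.22 for Dkk2, -1.53 for Wnt10a and -3.42 for Sfrp1. The day 1 and later differences share unirradiated arrays of the induced fibrosarcoma, nfsa and mca4. In the later one mmca is set against its own day 9 control. The groups hold 2 or 3 arrays, and no test for single outlying arrays within a group was run.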

How the results depend on the processing

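Of 381 calls of single genes, 343 kept their direction and side of the threshold under quantile normalization, 300 with missing values at the floor before it, 379 with the floor at the 10th percentile, 379 without the filter on dim probes, 364 with arrays of 1 beam only and 351 with the replicate block. The block gave 8 calls for gamma mmca minus mca4 (13 without it). In carbon mca4 and carbon mmca, where all or most correlations of same-numbered arrays were over 0.1, it removed no call of a treatment. Among calls named in the report it also ended those of Dkk2 in nrs1 at day 20 (adjusted p = 0.0749), of late Wnt4 in mmca (0.0643) and nfsa (0.12), of late Wnt7a in mmca (0.0794) and of late Fzd1 (0.0578) and Sfrp4 (0.102) in the induced fibrosarcoma, and of the late difference of Fzd1 (0.0568). Quantile normalization gave 8 calls in mmca at day 1 (4 in the report), 14 for 70 minus 30 Gy (7) and 14 in mmca late (9). Missing values at the floor gave 5 for growth (8), 1 at hour 6 (2), 3 for nfsa at day 20 (5) and 7 for the late difference (11). Arrays of 1 beam gave 3 for the day 1 difference (7), 5 for carbon mmca minus mca4 (0), 6 at hour 6, 13 in mmca at carbon days 1 to 5 (7) and 11 for nfsa at day 20. With 1 change per tumour, 0 were called in both means. The day 1 control gave 16 in late mmca. At day 1, 30 Gy alone gave 7 in mmca and 4 for the difference, and 50 Gy alone gave 2 in mmca, 3 in nfsa (11), 5 in mca4 (8), 8 in the mean (16) and 3 for the difference. The 70% limit gave 1 for carbon mmca minus mca4. It was Fzd10os (-1.14, adjusted p = 0.00683), which the main fit did not test. The cause of the other shifts was not tested. Directions turned for Fzd6 in the late mean (-0.063 under quantile normalization and -0.031 with missing values at the floor), for Fzd10 at day 1 (0.44 at the floor and 0.020 at 50 Gy), for Wnt10a in nfsa late (1.00) and in fibrosarcomas minus mammary carcinomas unirradiated (-0.19), and for Wnt6 in the late difference (0.20), all at the floor. At 50 Gy alone Wnt9a turned in mmca (-0.21) and mca4 (-0.19), Wnt3 (0.0048) and Wnt6 (0.0037) in the mean. Late Wnt9a in mmca turned with the day 1 control (0.41). Dimmer probes kept 11 of 17 calls of Wnt4 and 17 of 21 of Sfrp1. A dimmer probe of Fzd3 kept 3 of 11, lost 1 and gave -0.24, -0.58, -0.19, -0.50, 0.39, -0.066 and -0.092 in the 7 that turned. Of 4485 fits of a call with 1 array left out, 4172 kept it, 311 lost it and 2 turned, both Wnt11 in mca4 (between -0.84 and 0.033 over days 1 to 5 and between -0.83 and 0.045 at day 20). The range of calls without 1 array was 2 to 5 in mmca and 5 to 11 in nfsa at gamma day 1, 3 to 8 for the day 1 difference, 10 to 17 in nfsa late, 5 to 8 for growth and 8 to 11 for gamma mmca minus mca4. On carbon arrays it was 0 to 1 for mmca minus mca4, 1 to 3 at hour 6, 3 to 8 in mmca and in mca4 over days 1 to 5, 3 to 3 in nfsa and 3 to 4 in nrs1 at day 20, 7 to 9 in scc7 at day 42 and 9 to 17 for mmca at day 5. Low probes and missing gamma values limit what can be said of the 14 genes not tested.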
